A study of Mus musculus with 10 samples.

Results

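The genes described are the 6 core genes of ectodysplasin signalling: the ligand gene Eda, the receptor genes Edar, Eda2r and Tnfrsf19, the adaptor gene Edaradd and the signal transducer gene Traf6. They were taken by symbol from a table of read counts for 55401 genes, and all 6 were among the 19126 genes with enough counts to be tested. The table covers ectoderm peeled from mouse forelimb buds at stage E9.75 (days of embryonic development). It holds 3 libraries from double knockout (DKO) embryos without Sp8 or Sp6, zinc finger transcription factors of the limb ectoderm, and 3 libraries from wild-type (WT) littermates. Each replicate took the ectoderm of about 2 forelimb buds, and the labels name neither the knockout alleles nor the strain. The series has 4 more samples of stage E10.5, 2 from Sp6 knockout embryos and 2 from their littermates, that are not analysed here. Libraries carry their group and the number of their column, as DKO 17, DKO 40, DKO 41, WT 32, WT 53 and WT 56.

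Ectodysplasin is a ligand of the tumour necrosis factor (TNF) family that is made as a membrane protein and shed by furin-type proteases. One splice form binds the receptor EDAR, which recruits the adaptor EDARADD through their death domains and, through TRAF6 and the TAK kinase complex, activates NF-κB. Another splice form binds EDA2R. TROY, the product of Tnfrsf19, is a related receptor of embryonic epithelia that also binds TRAF proteins. Loss of EDA, EDAR or EDARADD causes hypohidrotic ectodermal dysplasia, in which hair, teeth and sweat glands fail to form, and the mouse mutants Tabby, downless and crinkled carry lesions in the same genes. The best known task of the pathway is the growth of placodes, the epithelial thickenings from which skin appendages start. The comparison asks how the level of these genes in early limb ectoderm differs when Sp8 and Sp6 are missing.

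The windows of 250 bases before the RefSeq start sites of Eda, Edar and Edaradd are printed because SP factors are known to bind GC-rich elements, and because these 3 genes had the largest fold changes in either direction among the 6. They are read 5′ to 3′ on the strand of the gene from build GRCm38.p6, and capitals mark the GC box, GGGCGG, searched on both strands. Eda lies at chrX:99975356-99975605 on the plus strand, Edar at chr10:58675697-58675946 on the minus strand and Edaradd at chr13:12520451-12520700 on the minus strand.
Eda: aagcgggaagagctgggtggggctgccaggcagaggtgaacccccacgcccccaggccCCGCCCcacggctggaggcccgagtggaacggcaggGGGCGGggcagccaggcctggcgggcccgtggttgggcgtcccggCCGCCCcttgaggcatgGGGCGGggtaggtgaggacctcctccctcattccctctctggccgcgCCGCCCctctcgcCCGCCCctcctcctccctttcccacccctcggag
Edar: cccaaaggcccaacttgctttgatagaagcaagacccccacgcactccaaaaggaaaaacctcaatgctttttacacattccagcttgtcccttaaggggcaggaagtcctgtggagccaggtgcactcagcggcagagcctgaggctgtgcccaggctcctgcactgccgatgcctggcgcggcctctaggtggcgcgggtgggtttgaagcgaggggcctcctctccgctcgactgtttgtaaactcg
Edaradd: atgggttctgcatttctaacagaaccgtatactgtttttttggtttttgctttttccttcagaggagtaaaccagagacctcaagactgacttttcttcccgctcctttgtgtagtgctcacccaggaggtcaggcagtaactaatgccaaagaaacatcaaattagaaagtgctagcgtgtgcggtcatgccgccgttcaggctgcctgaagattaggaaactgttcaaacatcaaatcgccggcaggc
The Eda window had 6 GC boxes and a GC content of 75.6%, and no exon of any gene fell in it. The windows of Edar (58.8% GC) and Edaradd (46% GC) had 0 GC boxes, which says only that these letters are not in these windows. Of the other members, Traf6 had 2 GC boxes and Eda2r had 1. Tnfrsf19 has 2 RefSeq starts, and the window of one had 3 GC boxes, of which 2 overlap, and that of the other 0. In the window with 3 GC boxes, 120 of the 250 bases were exon. Among 32841 RefSeq start sites of all genes, 32.7% had at least 1 GC box in a window of the same length and 0.883% had at least 6. The CACC box, CCACCC, another element that SP and KLF factors can bind, was found in 28.1% of all windows. It was found 2 times before Eda, 1 time before Edar, and 1 and 2 times in the 2 windows of Tnfrsf19. Edaradd, Eda2r and Traf6 had 0. A match of letters is a description and not a binding site.

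Library totals lay between 64432348 and 87040786 counts. Of the targeted genes, Sp8 was at 36.2 ± 6.22 in the WT and 3.68 ± 1.90 in the DKO libraries (CPM, each library's counts brought to a common total with TMM scaling; SD, n = 3 each), and Sp6 at 286.8 ± 50.65 and 74.68 ± 59.67 CPM. Sp8 fell (edgeR adjusted p = 0.000806), and Sp6 lay below WT in each DKO library but spread from 13.9 to 133 CPM and was not called (adjusted p = 0.207). Gene totals cannot show which part of Sp6 the DKO counts come from. All 10 ectoderm markers had counts, with a sum of 3316 to 3691 CPM in WT and 2336 to 3036 CPM in DKO. The 10 limb mesenchyme markers summed to 383 to 420 CPM in WT and 218 to 447 CPM in DKO, with Col1a2 highest by mean in both groups. Col1a2 (262 ± 56.4 and 145 ± 39.6 CPM) and Pdgfra (66.6 ± 28.6 and 7.66 ± 4.41 CPM) lay below WT in each DKO library. Prrx2 (35.1 ± 15.6 and 108 ± 58.5 CPM) and Twist1 (6.45 ± 7.29 and 29.5 ± 14.9 CPM) lay above WT in each DKO library, and the other markers overlapped. The sum thus hides opposite courses of its markers. The 8 blood markers summed to 0 to 298 CPM in WT and 26 to 886 CPM in DKO. The 10 markers of the apical ectodermal ridge, the thickened rim of the bud, summed to 2016 to 2483 CPM in WT and 275 to 468 CPM in DKO, and 7 of them fell. The part of ridge cells in the levels given here was not tested. Xist, transcribed in female cells, was at 46.6 CPM in DKO 40 and 32.6 CPM in WT 53, where 4 Y-linked genes had 0 counts. In the other 4 libraries the Y-linked genes summed to between 78.3 and 98.3 CPM, so each group held 1 female and 2 male libraries.

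None of the 6 genes was called changed (edgeR quasi-likelihood test, Benjamini-Hochberg adjusted p under 0.05), where 4.51% of all 19126 genes tested were called. At an unadjusted p under 0.05, 2 of the 6 were lower in DKO and 0 higher, against 9.36% and 8.66% of all genes, 18.0% in either direction. The same 2 genes, Edar and Edaradd, were those in which each DKO library lay below each WT library, a pattern found in 11.3% of all genes. DESeq2, a second count test, called both of them lower, where it called 4.70% of the 20940 genes it adjusted lower and 8.30% in either direction. The median log2 fold change, DKO minus WT, was -0.20 over the 6 genes and 0.03 over all genes. Peeled tissue pools many cells, so fewer cells of a kind and less RNA per cell cannot be told apart.

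Edar (ENSMUSG00000003227.4, GRCm38 chromosome 10, 58600789 to 58675654, minus strand) encodes the receptor through which ectodysplasin acts on placodes. Its level was 41.1 CPM in WT 32, 54.5 CPM in WT 53 and 70.7 CPM in WT 56. In the DKO libraries it was 35.0 CPM in DKO 17, 18.9 CPM in DKO 40 and 30.4 CPM in DKO 41. WT 56 was highest and DKO 40 lowest, and the groups did not overlap, though DKO 17 and WT 32 were close. The WT mean was 55.4 ± 14.9 CPM and the DKO mean 28.1 ± 8.28 CPM (SD, n = 3 each), 1.97-fold apart. The log2 fold change was -0.98 (SE 0.259, 95% interval -1.56 to -0.39) and was not called (edgeR adjusted p = 0.0722). DESeq2 gave a log2 fold change of -0.99 with an adjusted p of 0.0110. The counts behind these levels were 1448 to 6180 per library, so the spread between libraries and not counting error sets the precision.

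Edaradd (ENSMUSG00000095105.2, chromosome 13, 12472632 to 12520438, minus strand) encodes the death domain adaptor of EDAR. It was at 22.2 CPM in WT 32, 12.5 CPM in WT 53 and 21.8 CPM in WT 56. In DKO it was at 10.1 CPM in DKO 17, 4.67 CPM in DKO 40 and 10.49 CPM in DKO 41. In each group the other two libraries lay close together and the female library was lower, WT 53 among the WT libraries and DKO 40 among the DKO libraries. The WT mean was 18.9 ± 5.48 CPM and the DKO mean 8.41 ± 3.25 CPM, 2.24-fold apart, with a log2 fold change of -1.17 (SE 0.325, 95% interval -1.90 to -0.44) that did not pass (edgeR adjusted p = 0.0844). DESeq2 gave -1.18 (adjusted p = 0.0224). With the sex of the embryo as a covariate in the edgeR fit, a term added after the data were seen, the log2 fold change was -1.18 (SE 0.169) and passed (adjusted p = 0.0163), while Edar stayed above the threshold (adjusted p = 0.0809). With 1 female library a group, sex cannot be told apart from anything else that set WT 53 and DKO 40 off. Of the 10 ectoderm markers, 5 were lowest of their group in both of these libraries: Krt5, Krt14, Cdh1, Esrp1 and Trp63, the master factor of stratified epithelia. The other 5 were not, and Epcam and Cldn6 were highest of the WT group in WT 53. The part of these in the level of Edaradd was not tested.

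Eda (ENSMUSG00000059327.9, chromosome X, 99975606 to 100400762, plus strand), the ligand gene, had the lowest level of the 6, by CPM and per length. It was at 1.92 CPM in WT 32, 1.55 CPM in WT 53 and 1.53 CPM in WT 56, against 1.22 CPM in DKO 17, 3.58 CPM in DKO 40 and 2.59 CPM in DKO 41. The DKO libraries lay on both sides of the WT libraries, and they spread more, with a WT mean of 1.67 ± 0.220 CPM and a DKO mean of 2.46 ± 1.18 CPM. The log2 fold change was 0.54 (SE 0.429, 95% interval -0.43 to 1.51; edgeR adjusted p = 0.579). It was 0.20 without DKO 40 and 0.86 without DKO 17. Counts of Eda were 98 to 274 per library and do not separate the splice forms that bind the 2 receptors. Of the 10 limb mesenchyme markers, 4 (Prrx1, Twist1, Tbx5 and Col3a1) had the order of Eda over the DKO libraries, DKO 17 lowest and DKO 40 highest, and 6 did not. In WT, 8 of the 10 were highest in WT 32, where Eda was highest of the group. Prrx1, for one, was at 3.51, 23.3 and 12.8 CPM in DKO 17, DKO 40 and DKO 41 and at 29.0, 1.61 and 0.412 CPM in WT 32, WT 53 and WT 56. Over the 10 markers edgeR called 1 lower (2.81% of all genes) and 0 higher (1.70%). DESeq2 called Pdgfra and Col1a2 lower and Prrx2 higher (8.30% of all genes in either direction). The part of limb mesenchyme cells in the level of Eda was not tested.

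**Figure D1:**
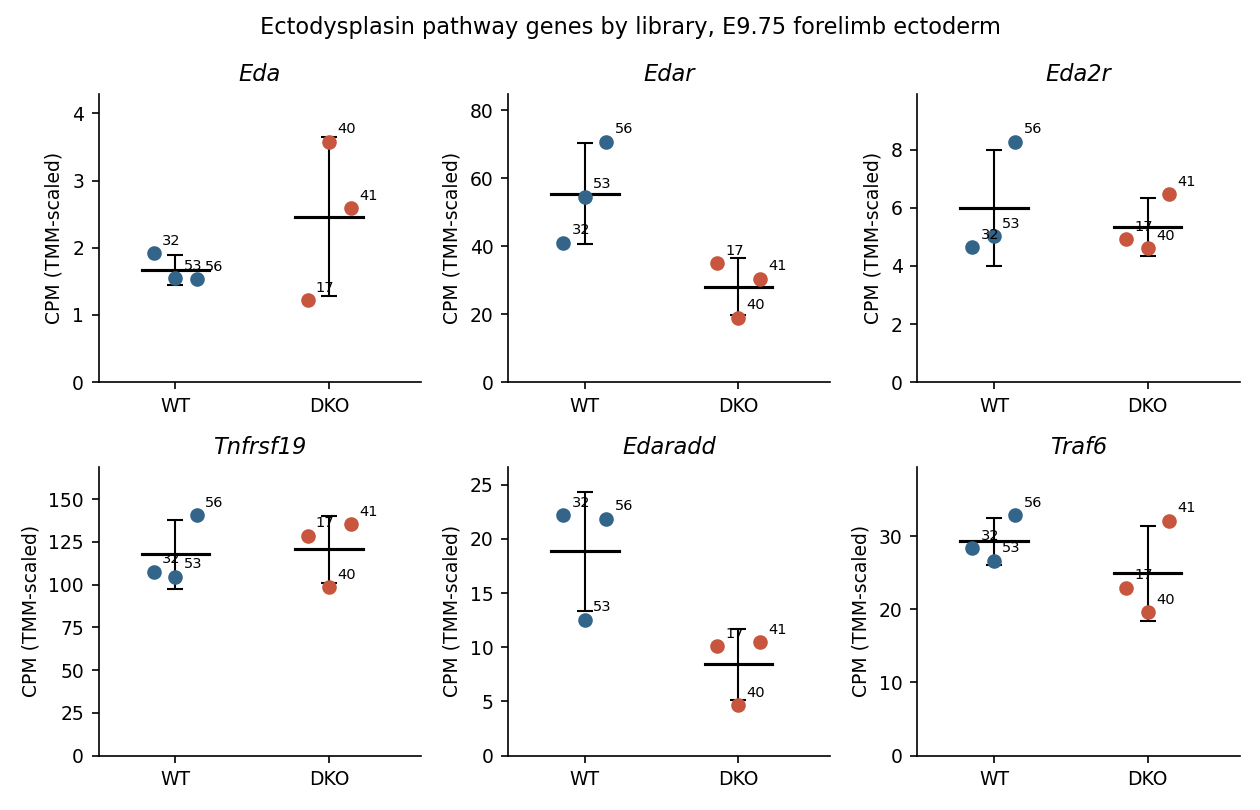
Level in CPM (TMM-scaled) of the 6 genes in each library; points are libraries with their column numbers, long bars are group means and error bars SD (n = 3 each). The DKO points lie below the WT points for Edar (18.9 to 35.0 against 41.1 to 70.7 CPM) and Edaradd (4.67 to 10.49 against 12.5 to 22.2 CPM) and overlap them for the other 4 genes.

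Eda2r (ENSMUSG00000034457.10, chromosome X, 97333840 to 97377216, minus strand) encodes the receptor of the other splice form. Its level was 4.64, 5.02 and 8.28 CPM in WT 32, WT 53 and WT 56 and 4.92, 4.60 and 6.48 CPM in DKO 17, DKO 40 and DKO 41. The groups overlapped throughout, with means of 5.98 ± 2.00 and 5.33 ± 1.004 CPM and a log2 fold change of -0.17 (SE 0.303, 95% interval -0.86 to 0.51; edgeR adjusted p = 0.828). The sign rested on WT 56, without which the log2 fold change was 0.15.

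Tnfrsf19 (ENSMUSG00000060548.13, chromosome 14, 60963875 to 61046490, minus strand), the gene of TROY, had the highest level of the 6, by CPM and per length. It was at 107.6, 104.6 and 140.6 CPM in WT 32, WT 53 and WT 56 and at 128.6, 98.4 and 135.2 CPM in DKO 17, DKO 40 and DKO 41. The libraries of the groups interleaved. The WT mean was 118 ± 20.0 CPM and the DKO mean 121 ± 19.6 CPM, with a log2 fold change of 0.04 (SE 0.164; edgeR adjusted p = 0.937) and a 95% interval of -0.33 to 0.41. The interval does not reach the -0.98 of Edar, though the difference between the 2 genes was not tested.

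Traf6 (ENSMUSG00000027164.8, chromosome 2, 101678429 to 101701669, plus strand) encodes the ubiquitin ligase that links EDARADD, and many other receptors, to NF-κB. It was at 28.3, 26.7 and 32.9 CPM in WT 32, WT 53 and WT 56 and at 22.9, 19.6 and 32.1 CPM in DKO 17, DKO 40 and DKO 41. DKO 41 lay among the WT libraries and the other DKO libraries below them. The means were 29.3 ± 3.21 and 24.9 ± 6.45 CPM, with a log2 fold change of -0.23 (SE 0.205, 95% interval -0.70 to 0.23; edgeR adjusted p = 0.625). The exons of none of the 6 genes overlap those of another gene in the annotation, so the unstranded libraries do not mix them with a neighbour.

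Levels of different genes were compared per kilobase (kb) of exon. In WT, Tnfrsf19 came first with 24.8 ± 4.22 CPM per kb, followed by Edar with 15.2 ± 4.09, Traf6 with 3.71 ± 0.407 and Edaradd with 2.83 ± 0.821 CPM per kb. Eda2r, with 1.02 ± 0.339, and Eda, with 0.244 ± 0.0323 CPM per kb, closed the order. In WT the ranges of neighbours in this order did not overlap, although Traf6 (lowest 3.38) and Edaradd (highest 3.33) all but touched. The receptor gene Edar was thus far above its ligand gene Eda in each WT library, by CPM per kb. In DKO the order of the means was the same, with 25.5 ± 4.14 for Tnfrsf19, 7.73 ± 2.28 for Edar and 3.16 ± 0.819 for Traf6. There Edaradd (1.26 ± 0.487, range 0.700 to 1.57) overlapped Eda2r (0.905 ± 0.170, range 0.781 to 1.10), and Eda was at 0.361 ± 0.173 CPM per kb. Length was that of all annotated exons joined, and the order was the same with the longest transcript of each gene.

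**Figure D2:**
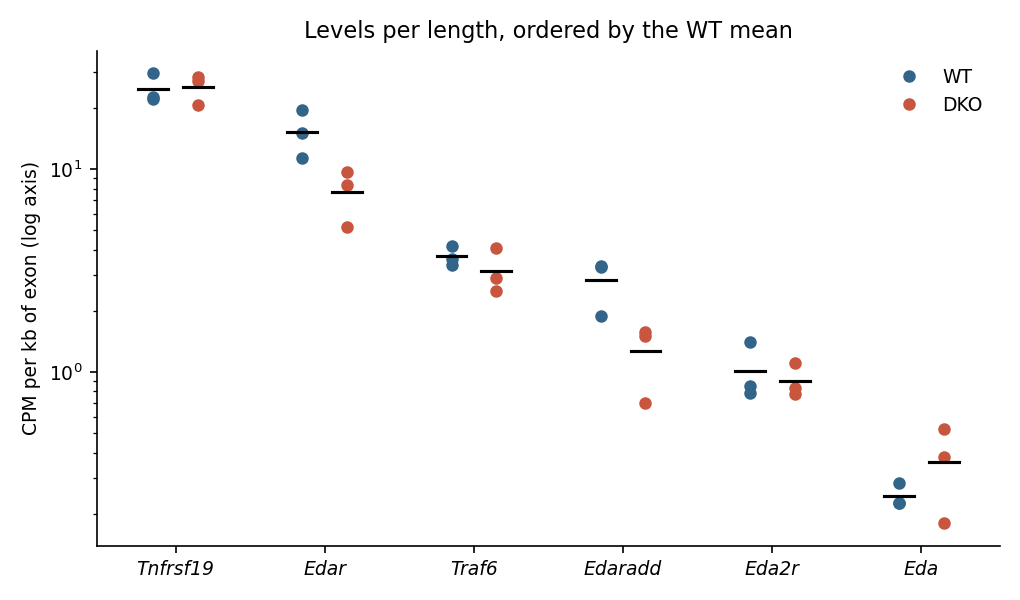
CPM per kb of exon (log axis) of the 6 genes in order of the WT mean; points are libraries and bars group means. Tnfrsf19 and Edar stand above the rest at 24.8 and 15.2 CPM per kb in WT, and Eda is lowest at 0.244.

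The ratio of Edar to Tnfrsf19, the other abundant receptor gene, was 0.381, 0.521 and 0.503 (CPM over CPM) in WT 32, WT 53 and WT 56. In DKO 17, DKO 40 and DKO 41 it was 0.272, 0.192 and 0.225, so each DKO library lay below each WT library. The ratio of Edar to Eda2r behaved likewise, at 8.84, 10.9 and 8.55 in WT and 7.11, 4.11 and 4.69 in DKO. The groups overlapped in the ratio of Edar to the other 3 members. Edar over Edaradd was 1.85, 4.35 and 3.24 in WT and 3.48, 4.06 and 2.90 in DKO. Edar over Traf6 was 1.45, 2.05 and 2.15 in WT and 1.53, 0.963 and 0.947 in DKO, where DKO 17 alone lay among the WT libraries. Edar over Eda was 21.4, 35.2 and 46.1 in WT and 28.6, 5.28 and 11.7 in DKO, again with DKO 17 among the WT libraries. These ratios are descriptions without a test.

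Some general genes of the epithelium were called changed, unlike the members. Epcam, an adhesion protein gene of nearly all epithelial cells, fell from 610 ± 36.0 to 420 ± 31.6 CPM (edgeR adjusted p = 0.0228). Cdh1, which encodes E-cadherin, fell from 283 ± 74.8 to 133 ± 42.5 CPM (adjusted p = 0.0437), and the keratin Krt8 rose from 345 ± 18.6 to 478 ± 26.4 CPM (adjusted p = 0.0315). Over the 10 ectoderm markers edgeR called 2 lower (2.81% of all genes) and 1 higher (1.70%). DESeq2 called Epcam, Cdh1, Trp63, Krt5 and Esrp1 lower and Krt8 higher (8.30% of all genes in either direction). The widest fold difference of the 10 was that of Krt5, 10.9-fold, with 312 ± 54.8 CPM in WT and 28.6 ± 31.6 CPM in DKO. It was not called by edgeR (adjusted p = 0.0635) and was called by DESeq2 (adjusted p = 0.00536). Per 100 CPM of Epcam, Edar was at 7.22, 8.59 and 11.3 in WT 32, WT 53 and WT 56 and at 7.97, 4.93 and 6.94 in DKO 17, DKO 40 and DKO 41. On this scale, added after the data were seen, DKO 17 lay above WT 32 and the groups overlapped. Epcam itself was lower in each DKO library, so division by it raises the DKO values of any gene relative to WT. Edaradd overlapped as well, with 3.90, 1.97 and 3.49 in WT and 2.29, 1.22 and 2.40 in DKO. Tnfrsf19 did not: its 18.9, 16.5 and 22.5 per 100 CPM of Epcam in WT lay below the 29.3, 25.7 and 30.9 in DKO. Set against the summed level of the 10 ectoderm markers, Edar and Edaradd overlapped between the groups and Tnfrsf19 did not, as with Epcam. That sum too was lower in each DKO library (2336 to 3036 against 3316 to 3691 CPM). These scales therefore cannot tell a change of a member from a change of the markers. The part of the epithelial genes in the level of Edar and Edaradd was not tested.

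**Figure D3:**
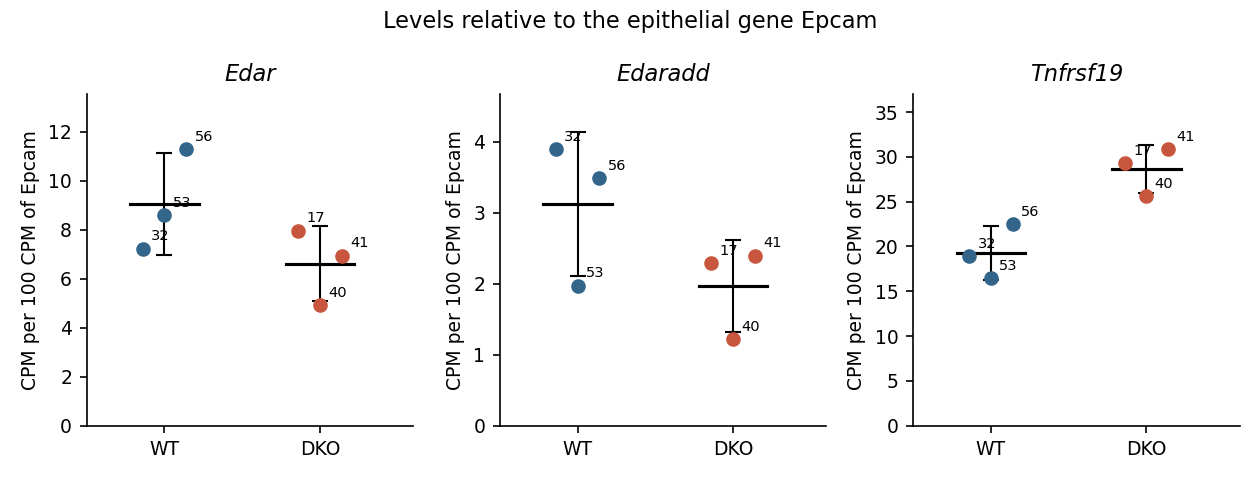
Level of Edar, Edaradd and Tnfrsf19 per 100 CPM of Epcam in each library, with group means and SD (n = 3 each). For Edar, DKO 17 (7.97) lies above WT 32 (7.22), and for Tnfrsf19 the DKO points (25.7 to 30.9) lie above the WT points (16.5 to 22.5). Epcam itself is lower in each DKO library, which raises the DKO values of any gene on this scale.

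The fold changes of Edar and Edaradd kept their sign with each of the 6 libraries left out in turn. That of Edar ranged from -1.18 (without WT 32) to -0.76 (without DKO 40), with edgeR adjusted p between 0.0667 and 0.280. That of Edaradd ranged from -1.38 (without WT 53) to -0.89 (without DKO 40), with adjusted p between 0.0666 and 0.283. No setting that left out a library called either gene. The sign of Tnfrsf19 changed with single libraries and that of Eda and Traf6 did not.

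**Figure D4:**
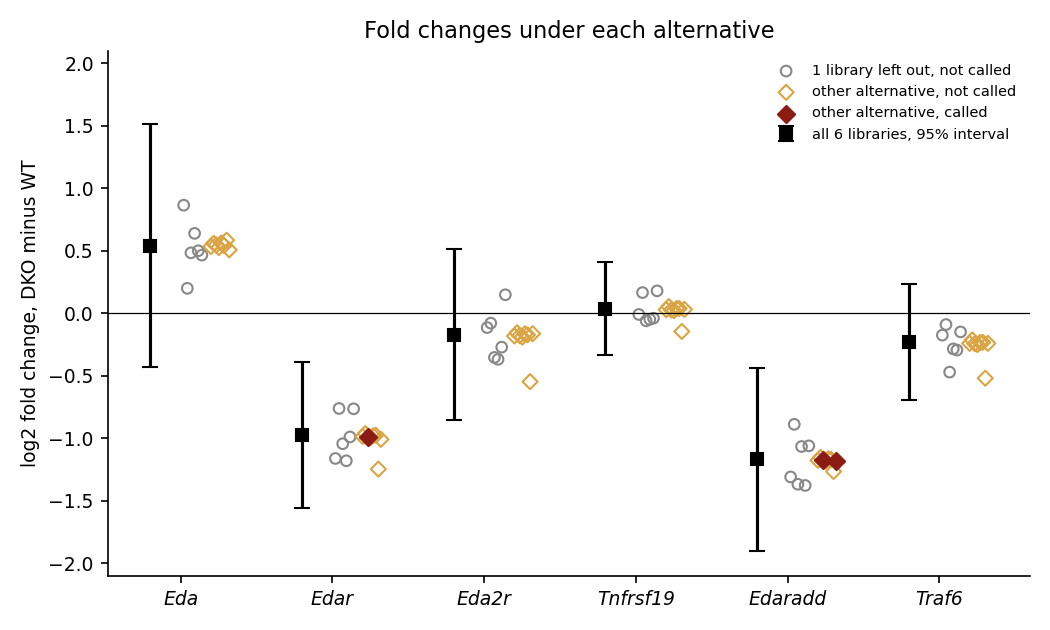
Log2 fold change (DKO minus WT) of the 6 genes with all libraries (squares, 95% interval), with 1 library left out (circles) and under the other alternatives (diamonds). Dark red diamonds mark calls, which were made for Edar (DESeq2, -0.99) and Edaradd (DESeq2, -1.18, and sex as a covariate, -1.18).

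For each member the 3 protein-coding genes with the most similar course over the 6 libraries were found by the root mean square (RMS) difference of log2 CPM after centring each gene, among 14204 genes. The nearest to Edar were Dnah11 (0.144), Inafm2 (0.145) and the predicted gene Gm50388 (0.163). Dnah11 averaged only 0.366 CPM in WT and 0.162 in DKO, a level where counting error weighs more. Inafm2 averaged 55.0 CPM in WT and 26.8 in DKO. The nearest to Edaradd were the sialyltransferase gene St6gal2 (0.104), the peroxisomal transporter gene Abcd2 (0.112) and Ovol1 (0.134), a zinc finger factor of epidermal differentiation. Ovol1 was at 22.8, 12.5 and 22.6 CPM in WT 32, WT 53 and WT 56 and at 11.1, 3.88 and 11.4 CPM in DKO 17, DKO 40 and DKO 41. It shared the low values of Edaradd in WT 53 and DKO 40. Eda was nearest to the adenosine receptor gene Adora2b (0.125), Prss16 (0.135) and Cldn34c1 (0.141). Eda2r was nearest to Mib2 (0.0897), Tcirg1 (0.100) and Tbc1d24 (0.103). Tnfrsf19 was nearest to Akap8l (0.0232), Camsap3 (0.0472) and Itpk1 (0.0507), and Traf6 to Smurf1 (0.0360), Jup (0.0382) and Pogk (0.0414). Among the members themselves, Eda2r, Tnfrsf19 and Traf6 lay closest together (RMS difference 0.186 to 0.203), Edar was nearest to Edaradd (0.401), and Eda was farthest from Edaradd (1.15).

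Below the receptor, the list of TRAF, TAK1 and NF-κB genes had 22 of 23 genes tested, of which 0 were called in either direction by edgeR (4.51% of all genes). At an unadjusted p under 0.05, 1 was lower (9.36% of all genes) and 3 higher (8.66%), and 11 log2 fold changes were negative and 11 positive, with a median of 0.04. The 3 with the highest mean CPM were Tab1, a subunit of the TAK1 complex (85.0 ± 11.0 CPM in WT and 81.2 ± 10.2 in DKO), the NF-κB inhibitor gene Nfkbib (74.5 ± 7.82 and 87.5 ± 4.26 CPM) and Traf2 (79.3 ± 8.41 and 65.9 ± 4.03 CPM). The 3 higher genes, named after their values were seen, were Relb, Nfkb2 and Tab2, and DESeq2 called these 3 (8.30% of all genes). Relb, a subunit of the noncanonical NF-κB branch, was at 2.73, 2.40 and 2.84 CPM in WT 32, WT 53 and WT 56 and at 5.28, 4.33 and 8.999 CPM in DKO 17, DKO 40 and DKO 41. That is a log2 fold change of 1.23 (SE 0.351; edgeR adjusted p = 0.0917, DESeq2 adjusted p = 0.0133). Its partner gene Nfkb2 averaged 7.74 ± 0.513 and 13.7 ± 3.03 CPM in WT and DKO (edgeR adjusted p = 0.0867), and 830 bases of its exons overlap other genes. Tab2, which links TRAF6 to TAK1, was at 28.1 ± 5.01 and 41.5 ± 2.30 CPM (edgeR adjusted p = 0.103). The lower gene, named in the same way, was the kinase gene Chuk, at 35.2 ± 0.969 and 25.6 ± 4.41 CPM (edgeR adjusted p = 0.177). NF-κB feedback genes did not pass either: Nfkbia was at 41.8 ± 2.07 and 51.3 ± 7.56 CPM, and Tnfaip3 at 2.51 ± 0.989 and 1.56 ± 1.22 CPM.

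Of 17 genes known to respond to ectodysplasin or NF-κB in placodes, 12 were tested, 1 was lower (2.81% of all genes) and 0 higher (1.70%). At an unadjusted p under 0.05 (edgeR), 3 were lower (9.36% of all genes) and 5 higher (8.66%). The gene called lower was Bmp4, a bone morphogenetic protein that is also a marker of the apical ectodermal ridge. It fell 4.89-fold, from 253 ± 42.5 to 51.7 ± 16.7 CPM (edgeR adjusted p = 0.00133), also with any 1 library left out. Pthlh, which encodes a parathyroid hormone related protein, was at 0.862 ± 0.472 in WT and 3.98 ± 2.18 CPM in DKO (edgeR adjusted p = 0.0636, DESeq2 adjusted p = 0.00342). Sostdc1, a WNT and BMP inhibitor gene, was at 36.8 ± 6.56 and 77.4 ± 39.3 CPM (edgeR adjusted p = 0.125), and DESeq2 called both higher. The WNT ligand gene Wnt10a was at 26.7 ± 6.81 and 13.4 ± 7.21 CPM (edgeR adjusted p = 0.171), and Ccn2, Lrp4 and Wnt10b were also transcribed and not called. At low levels, Foxi3 was at 0.302 ± 0.129 in WT and 0.0224 ± 0.0388 CPM in DKO (edgeR adjusted p = 0.0985). Dkk4 was at 0.167 ± 0.225 and 1.23 ± 1.03 CPM (edgeR adjusted p = 0.139), and Madcam1 at 0.165 ± 0.148 and 1.21 ± 1.03 CPM (edgeR adjusted p = 0.118). Of the 5 genes that were not tested, Foxi1 and Cxcl11 had 0 counts in the 6 libraries, which allows up to 0.0127 CPM over the WT group and 0.0120 CPM over the DKO group. Shh had counts in WT 32 alone (20 counts) and Fgf20 in DKO 41 alone (4 counts). These limits cover counting error only. The 12 log2 fold changes had a median of 0.49, with 6 negative and 6 positive.

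Of 24 other TNF receptor genes, 17 were tested, and 1 fell (2.81% of all genes) and 1 rose (1.70%). Relt, a receptor without a well defined ligand, fell 3.87-fold, from 31.8 ± 8.11 to 8.21 ± 3.53 CPM (log2 fold change -1.96, SE 0.331, edgeR adjusted p = 0.0129). It was at 22.9, 33.6 and 38.8 CPM in WT 32, WT 53 and WT 56 and at 10.1, 10.4 and 4.14 CPM in DKO 17, DKO 40 and DKO 41. Ngfr, the low affinity nerve growth factor receptor, which has a death domain as EDAR does, rose 4.41-fold from 4.73 ± 1.93 to 20.8 ± 7.49 CPM (log2 fold change 2.18, SE 0.353, edgeR adjusted p = 0.0109). It was at 3.69, 6.95 and 3.54 CPM in the WT libraries and at 19.2, 29.0 and 14.3 CPM in DKO 17, DKO 40 and DKO 41. Ngfr also marks neural crest, and of the 5 markers fixed for that lineage Sox10 was at 1.44, 4.26 and 0.767 CPM in WT and 10.9, 12.5 and 3.21 CPM in DKO (edgeR adjusted p = 0.103), and Foxd3 had 0 counts in all 6 libraries. The summed level of the 5 markers was 37.4 to 40.6 CPM in WT and 39.0 to 47.4 CPM in DKO. Most of that sum was Erbb3 (34.4 ± 0.461 CPM in WT and 32.5 ± 8.61 CPM in DKO), so it says little about Sox10. By edgeR 0 of 4 tested were called (4.51% of all genes), and DESeq2 called Sox10 alone, higher (adjusted p = 0.0241, 8.30% of all genes called). The part of these markers in the level of Ngfr was not tested. Without WT 56 Relt was not called (adjusted p = 0.0714), nor was it without the filter on low counts, and Ngfr was not called without WT 32 or WT 56 (adjusted p up to 0.0755). The 17 log2 fold changes had a median of 0.41. DESeq2 called 4 of the list (8.30% of all genes), Relt and Tnfrsf12a lower and Ngfr and Cd40 higher. Cd40, a co-stimulatory receptor, was at 1.31, 18.01 and 5.50 CPM in DKO 17, DKO 40 and DKO 41 against 0.426 to 2.65 CPM in WT, so the groups overlapped (edgeR adjusted p = 0.195).

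Of 17 other TNF ligand genes, 5 were tested and 0 were called by edgeR or DESeq2, with 0 lower and 1 higher at an unadjusted p under 0.05 (9.36% and 8.66% of all genes), and 8 had 0 counts in all 6 libraries. The higher gene, named after its value was seen, was Cd70, with 0.0997 ± 0.0891 CPM in WT and 0.631 ± 0.309 in DKO (edgeR adjusted p = 0.0891). The highest mean CPM was that of Tnfsf9, at 11.6 ± 3.10 in WT and 15.2 ± 0.794 in DKO, followed by Tnfsf12 (1.45 ± 0.354 and 2.31 ± 0.549 CPM) and Ltb (0.393 ± 0.258 and 0.900 ± 0.768 CPM). Of 4 furin-type proteases, the family that sheds ectodysplasin, 1 was called lower (2.81% of all genes): Pcsk6 fell 2.91-fold, from 22.3 ± 4.84 to 7.66 ± 2.69 CPM (log2 fold change -1.56, SE 0.289, edgeR adjusted p = 0.0195). Furin itself was at 50.6 ± 13.8 and 50.7 ± 6.23 CPM, with a 95% interval of the log2 fold change from -0.47 to 0.46, and Pcsk5 and Pcsk7 were not called. Pcsk6 was not called without the filter on low counts, or when DKO 40, WT 32 or WT 56 was left out (adjusted p up to 0.101), and 156 bases of its exons overlap a predicted gene.

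WNT signalling acts upstream of Eda and Edar in placodes, and 1 of 8 genes of that list was called (4.51% of all genes). Ctnnb1, which encodes β-catenin, fell 1.52-fold, from 1791 ± 197 to 1175 ± 213 CPM (log2 fold change -0.61, SE 0.143, edgeR adjusted p = 0.0477). It was not called when any 1 library but DKO 41 was left out (adjusted p up to 0.197), nor with unscaled totals, without the filter or with edgeR's default legacy=TRUE, and 782 bases of its exons overlap other genes. Lef1, the factor best known to drive Eda, was at 109 ± 6.42 and 123 ± 28.9 CPM (95% interval of the log2 fold change -0.20 to 0.54). Of the exons of Lef1, 1208 bases overlap a predicted gene. The WNT response gene Axin2 was at 11.3 ± 2.00 and 18.9 ± 3.77 CPM (edgeR adjusted p = 0.111). DESeq2 called 3 of the 8 (8.30% of all genes), Ctnnb1 and Tcf7l1 lower and Axin2 higher. The 8 log2 fold changes had a median of -0.11.

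In 16 other genes known from ectodermal dysplasias, 5 fell and 0 rose, against 2.81% and 1.70% of all genes, with a median log2 fold change of -0.56. The list was chosen with earlier results of these data known, so its count is not independent evidence of a direction. Pkp1, a desmosome gene, fell 33.6-fold (log2 fold change -5.06, edgeR adjusted p = 0.000757), also with any 1 library left out, and its log2 fold change was -6.11 without DKO 17. Hoxc13, a hair and nail homeobox gene, was at 9.16, 2.29 and 7.23 CPM in WT 32, WT 53 and WT 56 and at 0.456, 0 and 0.471 CPM in DKO 17, DKO 40 and DKO 41. It fell 20.2-fold (log2 fold change -4.33, SE 0.739, edgeR adjusted p = 0.0128), while DESeq2 did not call it (adjusted p = 0.0504). Nectin4, an adhesion protein gene, fell 3.87-fold from 56.4 ± 21.1 CPM (edgeR adjusted p = 0.0425), with a log2 fold change of -1.94, or -2.72 without DKO 41. Kremen1, the gene of a receptor that dampens WNT signalling, fell 2.42-fold from 183 ± 39.3 CPM (edgeR adjusted p = 0.0249). The homeobox gene Dlx3 fell 1.76-fold from 125 ± 10.7 CPM (edgeR adjusted p = 0.0263). Edar and Edaradd, at 1.97-fold and 2.24-fold between the means, lay between Dlx3 and Kremen1 in size but with larger SEs than Dlx3 (0.259 and 0.325 against 0.163). Trp63 was at 304 ± 38.1 and 184 ± 56.9 CPM (edgeR adjusted p = 0.0915). In the other direction, the homeobox gene Msx1 was at 282, 498 and 393 CPM in WT 32, WT 53 and WT 56 and at 1185, 799 and 536 CPM in DKO 17, DKO 40 and DKO 41, above WT in each DKO library. Its log2 difference of 1.10 (SE 0.285) was not called by edgeR (adjusted p = 0.0678) and was called by DESeq2 (adjusted p = 0.00471). DESeq2 called 6 of the 16, 5 lower and 1 higher (8.30% of all genes in either direction), and without DKO 41 edgeR called 6 lower and 1 higher. The calls of Hoxc13 were lost without DKO 40, WT 32 or WT 56, those of Nectin4 without any 1 library but DKO 41 or WT 53, those of Kremen1 without DKO 40 or any 1 WT library, and those of Dlx3 without any 1 library but DKO 17. With legacy=TRUE, edgeR called 2 of the 16, Pkp1 and Dlx3, and without the filter Pkp1 and Hoxc13.

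**Figure D5:**
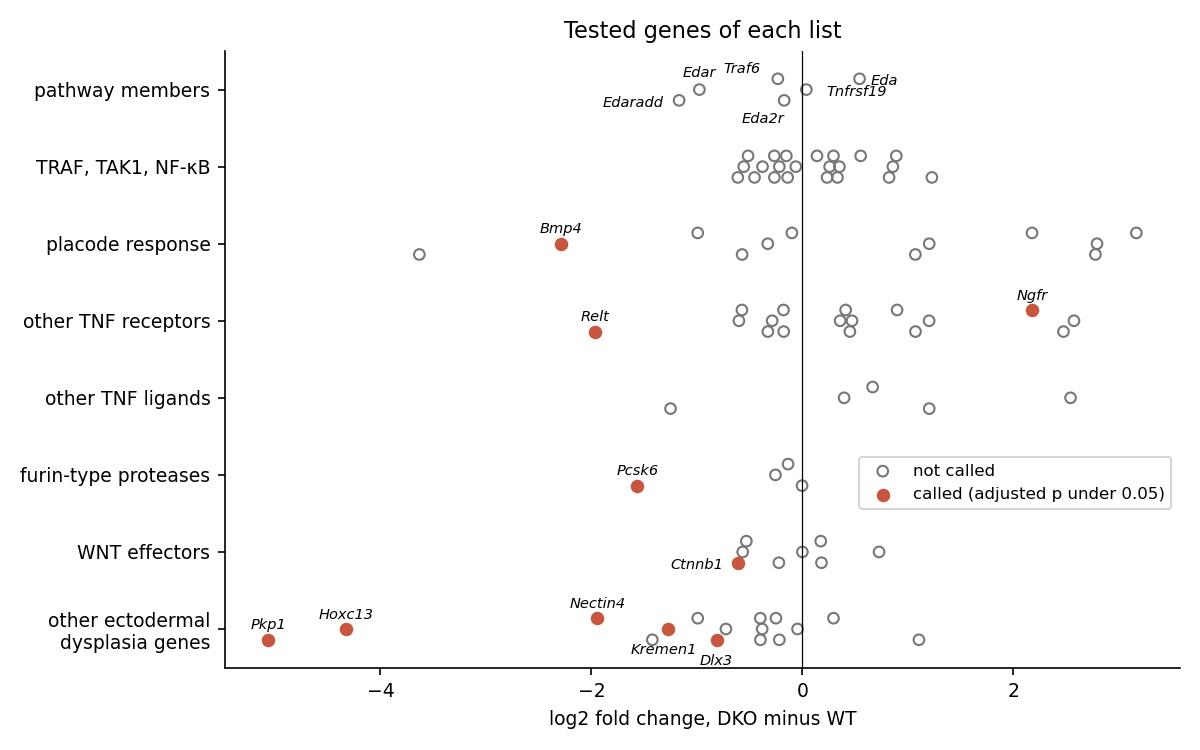
Log2 fold change (DKO minus WT) of each tested gene, by list; filled points were called (edgeR adjusted p under 0.05) and open points were not. The 6 members lie between -1.17 (Edaradd) and 0.54 (Eda) with 0 called, and the other ectodermal dysplasia genes reach -5.06 (Pkp1) with 5 called lower.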

How the data were processed

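RNA of E9.75 forelimb ectoderm, peeled after 20 min in 0.25% trypsin, was sequenced from SMART-Seq v4 and Nextera XT libraries, per the labels' protocols. The chemistry marks no strand and carries no molecular identifiers. The authors deposited raw counts per gene; FastQC, fastp, HISAT2, Cufflinks, StringTie and DESeq2 and the builds GRCm38 and mm10 are named in the submitters' processing notes, and the counting step is not given in the sources used here. Columns were assigned to groups by their names. They carry no replicate number of the labels, and nothing says which embryos were separate, so p-values reflect only how these libraries vary, which may be technical.

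Counts were tested with edgeR 4.0.16 in R 4.3.3 (filterByExpr, TMM, glmQLFit with robust=TRUE and legacy=FALSE), and p-values were adjusted over 19126 genes. The script was tested on simulated data. legacy=FALSE was taken in earlier work after a first run with the default. An SE was taken as the absolute log2 fold change over the root of its F statistic. A gene at 0 counts was given a floor of 3 counts over its group. DESeq2 1.42.0, other scalings, filters and settings, left-out libraries and sex as a covariate were alternatives. GENCODE M21 matched 55141 of 55401 identifiers, and RefSeq promoters were found for all 6 members. Members and lists were chosen with earlier results of these data known. Named were the members, Sp8 and Sp6, from each list the called genes (up to 6) or else the 3 of highest mean CPM, and the 3 nearest patterns of each member; other genes were named after their values were seen.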

Additional observations from a re-analysis of the deposited data

How the results depend on the processing

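For genes with many counts, such as Edar (1448 to 6180 per library), counting error is small beside the spread between libraries. For genes with few counts, such as Eda (98 to 274 per library), it is a larger part of that spread. In both cases 3 libraries a group set a limit. No paired analysis was possible because no column name holds a replicate number from the labels. Over the alternatives, Edar and Edaradd kept their direction in each. Both were called by DESeq2 (-0.99 and -1.18), and Edaradd also with sex as a covariate (-1.18), a setting chosen after the data were seen. The sign turned for Tnfrsf19 (from -0.061 to 0.18 leaving out 1 library, and -0.15 without both WT 32 and DKO 41) and for Eda2r (-0.37 to 0.15 leaving out 1 library); the cause was not tested. Of all genes tested, 863 of 19126 were called, 1738 of 20940 by DESeq2, 412 of 29852 without the filter and 546 of 19126 with legacy=TRUE. Unscaled totals gave 804 of 19126, sex as a covariate 816 of 19126, and leaving out both WT 32 and DKO 41 377 of 19117. Leaving out 1 library gave from 247 of 20019 (without WT 56) to 918 of 19910 (without DKO 41). The counts by list that follow moved under these differing shares and are not results about the lists alone. DESeq2 gave p-values for 15 placode response genes (edgeR 12) and 23 TNF receptor genes (edgeR 17). DESeq2 called 3 TRAF and NF-κB genes (edgeR 0), 3 placode response genes (edgeR 1), 4 TNF receptor genes (edgeR 2), 3 WNT effectors (edgeR 1) and 6 dysplasia genes, 5 lower and 1 higher (edgeR 5 lower). Without the filter the calls were 1 TNF receptor gene, 0 proteases, 0 WNT effectors and 2 dysplasia genes, against 2, 1, 1 and 5. With legacy=TRUE they were 0 WNT effectors and 2 dysplasia genes, with unscaled totals 0 WNT effectors, without both WT 32 and DKO 41 0 proteases and 2 dysplasia genes, and with sex as a covariate 2 placode response genes. Leaving out 1 library gave 1 to 3 placode response genes, 0 to 3 TNF receptor genes, 0 to 1 proteases, 0 to 2 WNT effectors and 1 to 7 dysplasia genes. Fewer samples enter where libraries are left out, and the cause of the other changes was not tested.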
